A study of Mus musculus with 6 samples.

Results

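Fc receptors bind the constant part of antibodies and pass that contact on to the cell. This account covers 5 genes of that family in mouse common myeloid progenitors (CMP): Fcgr3, Fcgr2b, Fcgr1 and Fcgr4, which encode the receptors for immunoglobulin G, and Fcer1g, which encodes the signalling chain shared by several of them. They were found as all probe sets whose platform annotation gave a single gene symbol, that of a member. The rule found 10 probe sets for the 5 genes, of 34945 probe sets with a single symbol and 18193 genes in all. Fcgr2b had 5 probe sets, Fcgr1 had 2, and Fcgr3, Fcgr4 and Fcer1g had 1 each. No probe set shared between a member and another gene was listed (0 probe sets).

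The cells came from the marrow of leg and hip bones of C57BL6 mice, with no genotype or treatment named. CMP were sorted by their content of reactive oxygen species (ROS), read with H2-DCFDA, which turns fluorescent on oxidation. The low-ROS and the high-ROS group, which each took 15% to 20% of all CMP, were read on 3 arrays each. The labels do not give the antibodies of the CMP gate, the age of the mice or whether replicates came from separate animals, so the spread behind the p-values may be technical only. The series was designed to ask what ROS do as CMP become megakaryocyte-erythrocyte progenitors.

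The members matter here for a practical reason as well as a biological one. Antibodies called CD16/32 bind the products of Fcgr3 (CD16) and Fcgr2b (CD32), and textbook gates use this staining to part myeloid progenitors. Granulocyte-monocyte progenitors stain brightly, CMP weakly, and megakaryocyte-erythrocyte progenitors little or not at all. In mature myeloid cells the activating receptors Fcgr1, Fcgr3 and Fcgr4 need the Fcer1g chain to reach the surface and to signal. That chain carries an activation motif, ITAM, that recruits the kinase Syk. Fcgr2b carries an inhibitory motif, ITIM, in its own tail and recruits the phosphatase encoded by Inpp5d.

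Of the 5 genes, 4 lie on chromosome 1 and Fcgr1 lies on chromosome 3 (RefSeq, GRCm38.p6). Among protein-coding genes Fcgr2b, Fcgr4 and Fcgr3 are direct neighbours in that order, and Fcer1g lies further along. The Entrez Gene identifiers are 14131 for Fcgr3, 14130 for Fcgr2b, 14129 for Fcgr1, 246256 for Fcgr4 and 14127 for Fcer1g. The promoters of the activating IgG receptors are shown for what their sequences share. The letters GAGGAAG, of the kind read by the myeloid transcription factor PU.1, were searched on both strands in RefSeq windows from 250 bases before to 50 bases after each transcript start, a motif chosen after the promoters had been read. All 5 members had a window, and the motif was in those of Fcgr1, Fcgr3 and Fcgr4 (4 of 6 windows, since Fcgr3 has overlapping ones), against 13.6% of 32851 windows of the same length. The stretches below read 5′ to 3′ along each gene's own strand, with capitals marking the motif, which lies in each as its reverse complement CTTCCTC.
Fcgr1, chr3:96293989-96294055, minus strand, motif from position -56: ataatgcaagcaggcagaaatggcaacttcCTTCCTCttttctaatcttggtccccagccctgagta
Fcgr3, chr1:171059374-171059440, minus strand, motif from position -7 or -16 by transcript start: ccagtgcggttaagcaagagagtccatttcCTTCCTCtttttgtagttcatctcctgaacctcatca
Fcgr4, chr1:171018873-171018939, plus strand, motif from position -23: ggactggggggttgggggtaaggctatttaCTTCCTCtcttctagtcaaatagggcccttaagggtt
These letters were not in the windows of Fcgr2b and Fcer1g. Such a match is a description of the sequence, and no binding was measured.

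The arrays were similar in scale, with medians of 40.3 to 42.4 and correlations of 0.975 to 0.991 over all genes. High-ROS replicate 3 stood apart. It had the highest 3′ to 5′ ratio of the Gapdh control, a measure of RNA integrity and labelling, at 4.53 against 2.54 to 3.57 on the other 5 arrays. Of the genes that define early progenitors, Kit gave 561 to 749 on the low-ROS arrays and 523 to 559 on the high-ROS arrays. Cd34 gave 360.0 to 497 and 341 to 801. The log2 fold change of Kit was -0.22 (SE 0.139) on this probe set and -0.82 on its other. Of the 7 early progenitor markers 3 were higher and 4 lower in high-ROS CMP, and 0 were called. The groups did not overlap for Kit and Gata2, 2 of the 7, against 13.4% of all genes. Their log2 fold changes ran in both directions, from -0.72 (SE 0.157) for Gata2 and -0.64 (SE 0.248) for Meis1 to 0.56 (SE 0.259) for Flt3, genes named after their values were seen. Genes of maturing neutrophils were bright in both groups, although the cells were sorted as CMP. Summed signals over 7 measured markers were 48630 to 51530 on the low-ROS and 48490 to 49620 on the high-ROS arrays. All 7 were lower in high-ROS CMP and 0 were called. The groups of 3 of the 7 did not overlap, against 13.4% of all genes.

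None of the 5 Fc receptor genes passed the test between low-ROS and high-ROS CMP. For Fcgr3, Fcer1g and the brightest Fcgr2b probe set the interval of the difference was narrow. Another Fcgr2b probe set, 1451941_a_at, had a wider one, -0.65 to 0.28. The test was limma on log2(signal + 16), adjusted over all genes, with a threshold of 0.05, and it called 0.055% of all genes (10 of 18193) and 0 of 5 members. At an unadjusted p under 0.05 it reached 7.81% of all genes and 0 of 5 members. In no member did the arrays of the groups stand clear of each other (0 of 5, against 13.4% of all genes). Tested probe set by probe set, 0 of 10 were called, against 0.0222% of all 45037 probe sets. At an unadjusted p under 0.05 there were 0 of 10, against 6.96%, and 0 of 10 had groups that did not overlap, against 13.2% of probe sets with a single symbol. In these bulk samples, fewer cells that express a gene and less of its RNA per cell cannot be told apart.

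**Figure D1:**
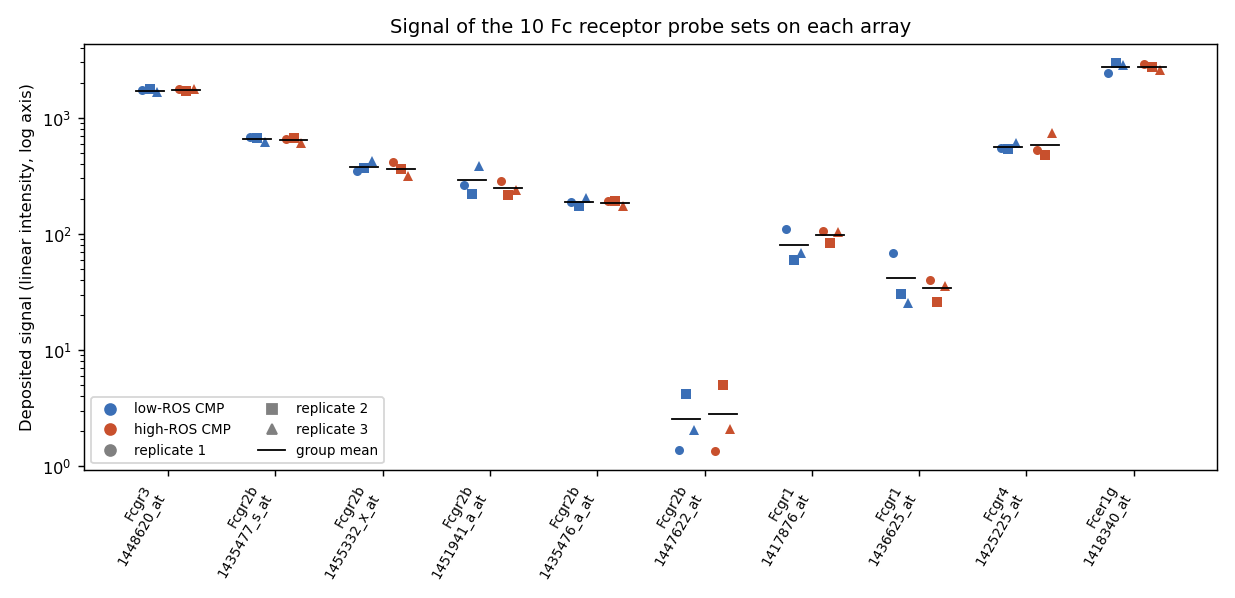
Deposited signal (vertical, log axis) of the 10 Fc receptor probe sets on each of the 6 arrays, with low-ROS CMP in blue, high-ROS CMP in red, the marker giving the replicate and the bar the group mean. The colours overlap for every probe set, and a single Fcgr2b probe set lies far down, at 1.35 to 4.96; heights of different probe sets cannot be compared as amounts of RNA.

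Of the receptor genes behind the CD16/32 stain, Fcgr3 varied least. It encodes the activating low-affinity receptor CD16. Its low-ROS arrays gave 1732, 1755 and 1670, in the order of the replicate numbers, and its high-ROS arrays 1777, 1695 and 1769. The 6 arrays spanned only 1.06-fold, and the groups are interleaved. The means were 1719 ± 43.7 (SD, n = 3) and 1747 ± 45.7 (SD, n = 3). The log2 fold change, high-ROS minus low-ROS, was 0.023 (SE 0.0904, adjusted p = 0.972). Its 95% confidence interval, -0.18 to 0.22, spans folds of 0.885 to 1.17, so a larger change of the Fcgr3 signal than this lies outside the interval. Only 1.61% of all genes had a smaller SE.

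Fcgr2b, the inhibitory receptor CD32, differed by less than its spread between arrays. Its brightest probe set gave 679, 664 and 613 in low-ROS CMP and 660.3, 665 and 604 in high-ROS CMP. Replicate 3 was the lowest array of each group, and the groups overlap over almost their whole range. The means were 652 ± 34.2 (SD, n = 3) and 643 ± 34.1 (SD, n = 3), with a log2 fold change of -0.019 (SE 0.120, 95% confidence interval -0.28 to 0.25, adjusted p = 0.983). The interval corresponds to folds of 0.821 to 1.19.

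The other 4 probe sets of Fcgr2b did not pass either. The suffixes of the Fcgr2b probe sets matter, since in this naming _s_at and _x_at mark probe sets that can read several related transcripts. The brightest probe set, which stands for the gene, is 1435477_s_at and so is of this kind. Fcgr2b and Fcgr3 have very similar extracellular parts, so the annotation cannot show how far the probe sets are separate. Probe set 1455332_x_at gave 312 to 421 over the 6 arrays and a log2 fold change of -0.064 (SE 0.157). Probe set 1435476_a_at gave 175 to 202 and -0.013 (SE 0.163). Probe set 1451941_a_at was the most scattered, at 266, 220.4 and 384 on the low-ROS and 285, 218 and 241 on the high-ROS arrays, with a log2 fold change of -0.19 (SE 0.209) and its single high value on low-ROS replicate 3. Probe set 1447622_at stayed at 1.35 to 4.96, far below the median signal of all genes, and bears no weight.

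The balance between the inhibitory and the activating receptor was measured as the difference of log2 signals, Fcgr2b minus Fcgr3, on each array. It was -1.33, -1.38 and -1.42 in low-ROS CMP and -1.41, -1.33 and -1.53 in high-ROS CMP. The absolute value depends on the probe sets and says nothing about which receptor is more abundant. Only its movement between arrays can be read, and that with a limit. The Fcgr2b probe set ends in _s_at, and how far it also reads Fcgr3 RNA was not tested. Where it does, the difference would move less than the RNAs themselves. The means were -1.38 ± 0.0453 (SD, n = 3) and -1.42 ± 0.0998 (SD, n = 3). The difference was -0.042 (exact permutation test, 2-sided, p = 0.70; 3 arrays against 3 cannot go below 0.1). Its sign turned without high-ROS replicate 3 (0.011) and with a Gapdh ratio covariate (0.026).

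Fcgr1, the high-affinity receptor CD64 of monocytes and macrophages, had the widest interval of the members, from signals near the median of all genes. Its brighter probe set gave 110.5, 59.5 and 68.2 in low-ROS CMP and 105, 84.0 and 104 in high-ROS CMP, against a median of 68.2 over all genes. A single low-ROS array, replicate 1, lies above all high-ROS arrays, and the other 2 lie below them. The means were 79.4 ± 27.3 (SD, n = 3) and 97.5 ± 11.7 (SD, n = 3), with a log2 fold change of 0.28 (SE 0.240, 95% confidence interval -0.25 to 0.81, adjusted p = 0.805). Without low-ROS replicate 1 it was 0.50 (unadjusted p = 0.0437, adjusted p = 0.765). Without low-ROS replicate 2 it was 0.13 (adjusted p = 0.943), with both probe sets averaged 0.072 (adjusted p = 0.970), and with a Gapdh ratio covariate 0.022. The second probe set of Fcgr1 gave 25.3 to 68.8, was also highest on low-ROS replicate 1, and differed by -0.14 on the log2 scale (SE 0.292). The probe sets thus point in opposite directions, and the interval of the brighter allows anything from a 0.844-fold to a 1.75-fold signal.

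Fcgr4, an activating receptor of monocytes and neutrophils, gave 545, 542 and 607 in low-ROS CMP and 533, 477 and 734 in high-ROS CMP. High-ROS CMP hold both the lowest and the highest of the 6 arrays. The means were 565 ± 36.5 (SD, n = 3) and 581 ± 135 (SD, n = 3), and the log2 fold change was 0.019 (SE 0.164, 95% confidence interval -0.34 to 0.38, adjusted p = 0.988). The highest value came from high-ROS replicate 3, whose Gapdh ratio of 4.53 was also the highest. Without that array the log2 fold change was -0.16 (adjusted p = 0.938). A Gapdh ratio covariate gave -0.23 (adjusted p = 0.904). The part of RNA quality in this was not tested.

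Fcer1g, the shared ITAM chain, gave 2438, 2948 and 2841 in low-ROS CMP and 2885, 2735 and 2566 in high-ROS CMP. The low-ROS arrays enclose all high-ROS arrays. The means were 2742 ± 269 (SD, n = 3) and 2729 ± 160 (SD, n = 3). The log2 fold change was -0.0041 (SE 0.0979, 95% confidence interval -0.22 to 0.21, adjusted p = 0.995), which spans folds of 0.859 to 1.16. Only 2.8% of all genes had a smaller SE.

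**Figure D2:**
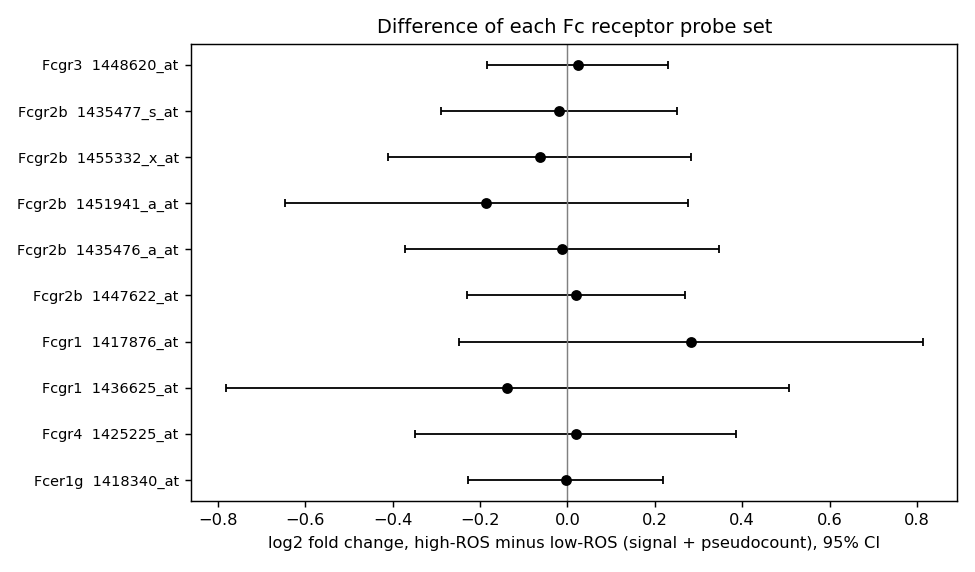
Log2 fold change of each Fc receptor probe set (horizontal, high-ROS minus low-ROS CMP, from the test of every probe set) with its 95% confidence interval. Every interval includes 0; those of Fcgr3, Fcer1g and the brightest Fcgr2b probe set are narrow, and those of both Fcgr1 probe sets are the widest.

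Deviations from each gene's own mean, on the log2 scale, were widest for Fcgr1. It stood at 0.30 on low-ROS replicate 1 and at -0.44 on low-ROS replicate 2, where Fcer1g stood at -0.16 and 0.11. On high-ROS replicate 3, Fcgr4 lay 0.36 above its mean while Fcgr2b stood at -0.097. Across the 6 arrays Pearson's r was -0.86 between Fcgr2b and Fcgr4, -0.71 between Fcgr1 and Fcer1g, 0.12 between Fcgr2b and Fcgr3, and -0.044 between Fcgr3 and Fcer1g. These values describe 6 arrays that share their scaling, and for Fcgr3, Fcgr2b and Fcer1g they rest on deviations under 0.17 on the log2 scale.

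**Figure D3:**
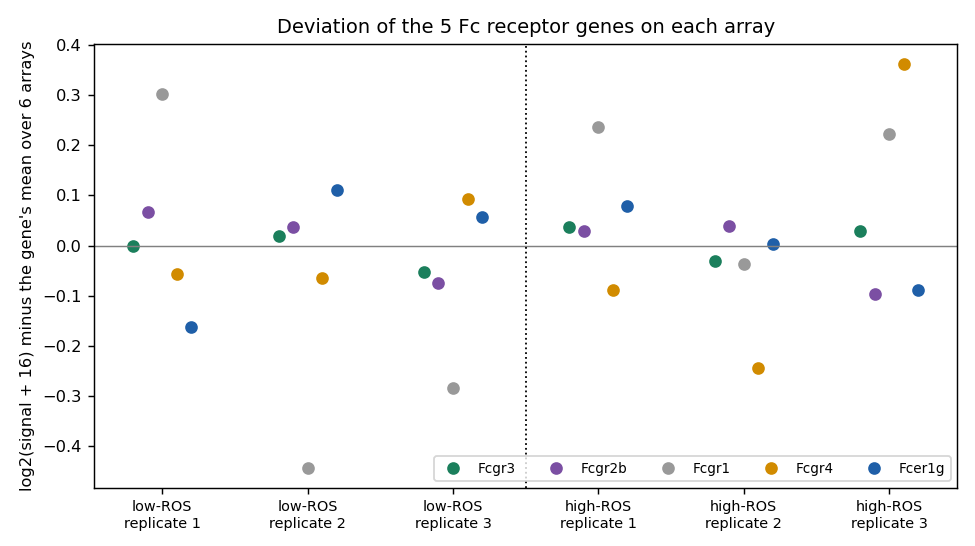
Deviation of each of the 5 Fc receptor genes from its mean over the 6 arrays (vertical, log2 of signal plus 16) on each array (horizontal). Fcgr3 stays nearest to 0; Fcgr1 is high on low-ROS replicate 1 and lowest, at -0.44, on low-ROS replicate 2, and Fcgr4 is high on high-ROS replicate 3.

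The genes with the most similar course over the 6 arrays were sought among 9095 other genes above the median signal. For Fcgr3 they were Melk (r = 0.98) and Dnajc14 (r = 0.97), and for Fcgr2b Atf7 and Nlrc5 (both r = 0.99). For Fcgr1 they were 9130401M01Rik (r = 0.996) and Hemk1 (r = 0.99), for Fcgr4 Cystm1 and Lonrf3 (both r = 0.98), and for Fcer1g Snapin (r = 0.996) and Tmem179b (r = 0.98). They are the highest of 9095 coefficients over only 6 arrays. No member was among the 2 most similar genes of another.

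None of the other receptors for antibodies passed the test. Of 14 listed genes 11 were measured and 0 were called. In high-ROS CMP 6 were higher and 5 lower. Their median log2 fold change was 0.042, against 0.019 over all genes. At or below the median signal of all genes lay 5 of the 11. The IgE receptor chains, which pair with Fcer1g on mast cells and basophils, were Fcer1a, at 72.4 ± 16.3 and 76.2 ± 19.3 (SD, n = 3), and Ms4a2, at 214 ± 37.9 and 208 ± 12.8. Their log2 fold changes were 0.057 (SE 0.238) and -0.028 (SE 0.178). Fcgrt, the neonatal receptor that protects IgG from breakdown, had 0.089 (SE 0.207). The smallest p-values belonged to the IgM receptor Fcmr (0.46, SE 0.256, adjusted p = 0.689), the cytosolic antibody receptor Trim21 (-0.29, SE 0.199, adjusted p = 0.744) and the B cell protein Fcrl1 (0.17, SE 0.221, adjusted p = 0.890).

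A list of adaptors like Fcer1g and of receptors that signal through such adaptors, Cd3e, Trem1 and Trem2 among them, gave 5 higher and 6 lower genes of 11 measured, a median of -0.053 and 0 calls. Tyrobp, the ITAM adaptor DAP12, gave 6136 ± 184 on the low-ROS and 5913 ± 136 on the high-ROS arrays (SD, n = 3), a log2 difference of -0.053 (SE 0.0675, adjusted p = 0.884). Cd247, the zeta chain of the T cell receptor and an ITAM chain related to Fcer1g, had -0.43 (SE 0.205, adjusted p = 0.645) on its chosen probe set, but its other probe sets had 0.30, -0.28 and -0.16. The platelet collagen receptor Gp6, which signals through Fcer1g, gave 1.24 to 13.6, far below the median signal of all genes. Hcst, the adaptor DAP10, gave 732 to 786 on the low-ROS and 655 to 671 on the high-ROS arrays, groups that stood apart without passing (log2 fold change -0.17, SE 0.114, adjusted p = 0.739). In this list 2 of 11 genes, Hcst and the very dim Gp6, had groups that did not overlap, against 13.4% of all genes.

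Among genes that carry the activating signal onward, 17 of 22 measured were lower in high-ROS CMP and 5 higher, where 46.0% of all genes were lower. The median log2 fold change was -0.16, against 0.019 over all genes, and 0 of 22 were called. The median was -0.069 without high-ROS replicate 3 and -0.0078 with a Gapdh ratio covariate. The Gapdh ratio partly follows the groups, so with this covariate RNA quality and group cannot be told apart. The part of RNA quality in this shift was not tested. Lat, an adaptor of mast cells and platelets, gave 142, 145 and 142 in low-ROS CMP and 96.2, 74.7 and 113 in high-ROS CMP (log2 fold change -0.54, SE 0.201, unadjusted p = 0.0217, adjusted p = 0.587). Plcg1, a phospholipase that releases calcium, gave 466, 496 and 353 and then 335, 340.4 and 295 (-0.41, SE 0.163, unadjusted p = 0.0289, adjusted p = 0.598), but its other probe sets had -0.20 and 0.20. Lat and Plcg1 were the 2 of 22 genes whose groups did not overlap, a share below the 13.4% of all genes. The kinase Btk had -0.49 (SE 0.231, adjusted p = 0.638). Syk, the kinase that docks on the phosphorylated ITAM of Fcer1g, gave 1077 ± 147 and 894 ± 33.8 (SD, n = 3), and its log2 fold change of -0.26 (SE 0.124, adjusted p = 0.646) did not pass. Lyn is not analysed here.

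Of the genes that end Fc receptor signals, 8 of 15 measured were higher in high-ROS CMP and 7 lower, with a median of 0.0041 and 0 calls. Inpp5d, the lipid phosphatase SHIP1 that Fcgr2b recruits, gave 555, 654 and 598 in low-ROS CMP and 728, 714 and 807 in high-ROS CMP. The log2 difference was 0.31 (SE 0.125, unadjusted p = 0.0301, adjusted p = 0.601). Its other probe set had -0.02. Ptpn6, the protein phosphatase SHP-1, had 0.0041 (SE 0.140). Cbl, a ubiquitin ligase that marks active receptors for removal, had -0.45 (SE 0.206, adjusted p = 0.638), with 386 on high-ROS replicate 3 and 682 to 859 on the other 5 arrays. Its other probe sets had 0.13 and -0.28. Inpp5d, which was higher, and Cbl, which was lower, were the 2 of 15 genes whose groups did not overlap, against 13.4% of all genes. Inppl1, the related phosphatase SHIP2, had 0.54 (SE 0.248, adjusted p = 0.638) from signals of 18.3 to 62.6. Of the 4 pathway lists together, 3 of 59 genes had an unadjusted p under 0.05, against 7.81% of all genes.

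**Figure D4:**
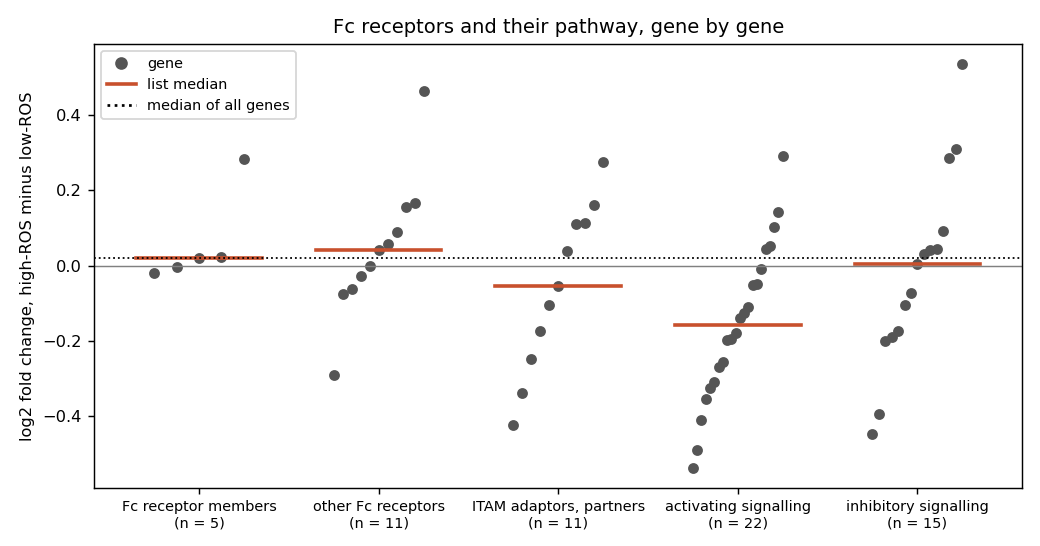
Log2 fold change (vertical, high-ROS minus low-ROS CMP) of the 5 Fc receptor genes and of each measured gene of 4 Fc pathway lists, ordered by value within a list, with list medians as bars and the median of all genes as a dotted line. No gene shown passed the test, and the activating signalling genes have the lowest median, -0.16.

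Marker genes of other cell types were read beside the receptors, since mature myeloid cells carry Fc receptors too. Of 7 measured monocyte markers, 6 were higher in high-ROS CMP, with summed signals of 5747 to 6316 on the low-ROS and 7139 to 8743 on the high-ROS arrays. None passed over all genes (0 of 7), and 4 of 7 had an unadjusted p under 0.05, all higher, against 7.81% of all genes. That count was 2 of 7 for megakaryocyte-erythrocyte and 2 of 7 for early progenitor markers, all lower. It was 1 of 6 for granulocyte-monocyte progenitor and 1 of 7 for macrophage markers, both higher, and 0 in the other marker lists. The lists were chosen with earlier results of these data known, so these counts are no test. The sum of the 5 Fc receptor genes, 5504 to 5968 and 5656 to 5960, overlapped between the groups. Such sums follow the brightest probe sets, here those of Fcer1g and Fcgr3 (means of 2735 and 1733), while Fcgr1 (88.4) hardly counts. Granulocyte-monocyte progenitor markers summed to 14470 to 15330 and 15640 to 16990 over 6 genes, and megakaryocyte-erythrocyte progenitor markers to 5474 to 5913 and 4509 to 5126 over 7, all 7 lower in high-ROS CMP and 0 called. Macrophage markers summed to 2442 to 3096 and 2708 to 3348, mast cell and basophil markers to 2487 to 2564 and 2332 to 2556, B cell markers to 2015 to 2651 and 1972 to 2465, and T and natural killer cell markers to 1335 to 1638 and 1350 to 1621. The part of these cells in the Fc receptor signals was not tested.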

How the data were processed

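The deposited values are a linear intensity for each of 45101 probe sets on 6 arrays. Per the labels' protocols, a Qiagen micro kit gave the RNA, and a NuGEN Ovation kit the biotin-labelled cDNA. For these intensity values the authors' summary and scaling are not given in the sources used here. There is no detection call. Symbols came from the platform's annotation: 34945 probe sets had a single symbol, 932 several, 9160 none, and 64 were controls. The probe set with the highest mean log2 value stood for each of 18193 genes. The groups were compared, high-ROS minus low-ROS, with limma 3.58.1 in R 4.3.3 on log2(signal + 16), 2-sided, with a mean-variance trend, no further normalization and Benjamini-Hochberg adjustment over all genes. A second fit tested all 45037 probe sets that are not controls. The gene fit had 4 residual degrees of freedom, or 11.1 after moderation. The number of arrays limits the precision. Adding 16 shrinks fold changes of dim genes. Genes of the pathway lists are named if they were among the 3 smallest p-values of a list or were Fcer1a, Ms4a2, Fcgrt, Tyrobp, Syk, Lyn, Inpp5d or Ptpn6; Kit, Cd34 and the 2 most similar genes of each member complete the rule. The members and lists were chosen with earlier results of these data known, so lists are described by counts and medians, with no test. In simulated data of 18193 genes, 200 genes above the median signal were changed, with normal noise independent between arrays. Of these changes 59.6% of log2 size 1 and 95.6% of size 2 were called, and 3.16% of calls were false. The shares do not describe dim genes or effects of a single array on many genes. Alternatives were quantile normalization, a filter on dim genes, pseudocounts of 1 and 64, averaging the probe sets of each gene, a replicate block, no trend, the log2 Gapdh ratio as a covariate, single probe sets, and leaving out each array. Promoter windows came from RefSeq (GRCm38.p6). Python 3.11.15 with matplotlib 3.10.9 drew the figures.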

Additional observations from a re-analysis of the deposited data

How the results depend on the processing

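No alternative brought any of the 5 Fc receptor genes past the threshold. Over 75 values the adjusted p was never below 0.684, and 13 had the opposite sign to the reported value. The filter, the replicate block, the fit without a trend and the single probe sets keep the fold change by construction. Averaging also keeps it for genes with a single probe set, so the sign of these values could not turn. With the Gapdh ratio as a covariate the log2 fold changes were 0.010 for Fcgr2b, -0.016 for Fcgr3, -0.23 for Fcgr4 and 0.099 for Fcer1g, the difference of Fcgr2b and Fcgr3 was 0.026, and the median of activating signalling was -0.0078. That covariate partly follows the groups, so these values are not a pure correction for RNA quality. Quantile normalization gave 0.043 for Fcer1g. Leaving out each array in turn gave 0.13 to 0.50 for Fcgr1, -0.061 to 0.025 for Fcgr2b, 0.0028 to 0.045 for Fcgr3, -0.16 to 0.15 for Fcgr4, -0.086 to 0.050 for Fcer1g and -0.088 to 0.011 for Fcgr2b relative to Fcgr3. Opposite signs came without low-ROS replicate 1 for Fcgr2b (0.0098) and Fcgr4 (-0.0052), without low-ROS replicate 2 for Fcgr4 (-0.0086) and Fcer1g (0.050), without low-ROS replicate 3 for Fcer1g (0.024), and without high-ROS replicate 3 for Fcgr2b (0.025), Fcgr4 (-0.16), Fcer1g (0.039) and the difference (0.011). With an array left out, list medians ranged from -0.047 to 0.0999 for other Fc receptors and -0.094 to -0.046 for adaptors. For activating signalling they ranged from -0.19 to -0.069, and for inhibitory signalling from -0.083 to 0.017. Outside these ranges lay the adaptor median with quantile normalization (-0.017) and with the Gapdh covariate (-0.0075), and the activating median with that covariate.

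The count over all genes, 10, was 16 with only genes above the median signal, 4 with a pseudocount of 64, 3 with the Gapdh covariate, 0 without a mean-variance trend (limma, 1351 at an unadjusted p under 0.05) and 1 to 6 with an array left out. The causes were not tested. With the replicate block it was 4 and no call of a member changed. The deviations of same-numbered arrays correlated at 0.16, 0.11 and -0.044, and those of arrays with different numbers at -0.18 to 0.13. With so few arrays these values cannot show whether the numbers pair the samples.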
